A study of Mus musculus with 8 samples.

Results

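The 9 genes described here are mature B cell genes, namely Cd79a, Cd79b, Ms4a1, Cr2, Pax5, Fcer2a, Cd22, Cxcr5 and Blk. They were chosen by name, for what they are known to mark, out of 51789 genes in a count table from whole mouse mammary glands. The choice was made with earlier results of these data known. All 9 were matched to the table by gene symbol, and all 9 passed the filter on low counts, with a smallest count of 264 in any library. The question was how much B cell RNA each gland held, whether the 9 genes moved together between glands, and whether their level differed with the vesicles that had been injected.

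In this experiment, small extracellular vesicles (sEVs), which are membrane particles that cells shed, were injected into the abdominal mammary gland of immunocompetent female C57BL/6 mice, and polyA RNA of the gland was sequenced 6 weeks later. The 3 sEVNORM glands received vesicles released in normoxia by AT3, a mammary adenocarcinoma line of the mouse that metastasizes. The 2 sEVHYP glands received vesicles released by the same line in hypoxia, and the 3 sEVCTRL glands received material prepared from medium in which no cells had grown. The labels call these groups normoxia, hypoxia and control and name the tissue as mammary gland. Every group had been injected once, no gland without an injection was analyzed here, and the age of the mice is not given in the sources used here. Libraries of a group are numbered 1 to 3 as in the labels, and the animals per group that the study describes match the libraries per group, so P values measure the spread between animals if each gave 1 library.

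B cells recognize antigen through the B cell receptor, a membrane immunoglobulin that signals through the paired chains encoded by Cd79a and Cd79b. Mature B cells gather in the follicles of lymph nodes, where they are drawn by the chemokine CXCL13 through its receptor CXCR5. In mice the abdominal mammary fat pad contains a lymph node, so RNA of a whole gland can hold the RNA of that node. Whether the node was taken out before RNA was extracted is not given in the sources used here.

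Levels are given as CPM, which are counts that edgeR scaled by its TMM factors so that libraries of different depth can be compared, and total counts per library ran from 18194996 to 24622569. The 9 genes together held 0.0812% to 0.287% of all counts. The glands also carried the genes that define the labelled tissue, with luminal Epcam at 63.5 to 128 CPM and adipocyte Adipoq at 678 to 1580 CPM. The skeletal muscle list varied far more than any other, from a summed 9.97 CPM in sEVNORM 2 to 11602 CPM in sEVHYP 2. In bulk RNA, fewer cells of a type and less RNA per cell cannot be told apart.

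The 9 genes lie on 8 chromosomes (GRCm38). Cd79a (chr7:24897381-24902197, plus strand) and Cd79b (chr11:106311341-106314762, minus strand) encode the signaling chains. Cr2 (chr1:195136811-195176716), Cd22 (chr7:30865402-30880342), Ms4a1 (chr19:11249675-11266241), Fcer2a (chr8:3681737-3694175) and Cxcr5 (chr9:44511787-44561877) encode surface proteins, all from the minus strand. Pax5 (chr4:44524757-44710487) encodes the transcription factor and Blk (chr14:63372836-63417037) the kinase, both also from the minus strand. Exons of Cxcr5 share positions with exons of Bcl9l on the opposite strand, and whether the counting used strand is not given in the sources used here. Bcl9l held 327 to 554 counts, at most 57.7% of the Cxcr5 count of the same library, so part of either count may belong to the other gene. The genes that share exon positions with Pax5 or Cd22 held at most 8 counts.

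The start regions of Cd79a, Cr2 and Pax5 are shown as examples of a receptor chain, a surface receptor and a transcription factor. Each is the stretch before the RefSeq start (GRCm38.p6) that lies in no annotated exon, printed 5′ to 3′ on the strand of the gene, and capitals mark CAGGTG, the E-box core, on either strand. The stretches are chr7:24897247-24897380 for Cd79a, chr1:195176720-195176969 for Cr2 and chr4:44710695-44710944 for Pax5.
Cd79a: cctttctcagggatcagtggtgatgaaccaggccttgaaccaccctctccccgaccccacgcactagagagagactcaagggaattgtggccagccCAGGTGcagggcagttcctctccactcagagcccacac
Cr2: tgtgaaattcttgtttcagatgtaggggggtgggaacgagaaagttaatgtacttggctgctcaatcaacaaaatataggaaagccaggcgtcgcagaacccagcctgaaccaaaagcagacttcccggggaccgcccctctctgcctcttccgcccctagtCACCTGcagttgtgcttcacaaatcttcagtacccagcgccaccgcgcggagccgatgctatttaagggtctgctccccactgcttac
Pax5: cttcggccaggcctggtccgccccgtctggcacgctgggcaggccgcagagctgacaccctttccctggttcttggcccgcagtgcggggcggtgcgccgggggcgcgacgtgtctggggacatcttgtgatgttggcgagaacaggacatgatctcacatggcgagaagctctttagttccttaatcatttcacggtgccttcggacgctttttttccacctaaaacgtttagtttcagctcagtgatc

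Counted from the RefSeq start, the match lies at -154 to -149 in Cd79a and at -88 to -83 in Cr2, and the Pax5 stretch holds none. RefSeq gave 7 start windows for 5 of the 9 genes (Cd79a, Cr2, Pax5, Cd22 and 3 for Fcer2a). In the 250 bases before the start, CAGGTG or its reverse complement stood in 4 of these 7 windows, and in 17.2% of all 32851 windows. CCCNNGGG, the core that EBF1 binds, stood in 1 of the 7 windows (Cd22) and in 11.8% of all. The octamer ATTTGCAT stood in 0 of 7 and in 1.60% of all, and the PU.1 letters GAGGAAGT in 0 of 7 and in 2.44% of all. Both strands were searched, and in the 3 stretches printed no match overlapped another. A match describes these letters only, and the absence of one says nothing about the factor.

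The signaling chains of the receptor were present in every gland. Cd79a measured 163, 69.5 and 104 CPM in sEVCTRL 1 to 3, 121, 181 and 75.0 CPM in sEVNORM 1 to 3, and 128 and 50.9 CPM in sEVHYP 1 and 2. Cd79b measured 534, 187 and 311 CPM in sEVCTRL, 319, 515 and 218 CPM in sEVNORM, and 303 and 134 CPM in sEVHYP. For both chains sEVHYP 2 was the lowest gland, and sEVCTRL 1 and sEVNORM 2 were the highest pair. The sEVHYP values reached from below to inside the range of the other groups, so the 3 groups overlapped.

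Blk encodes a Src family kinase that acts below the receptor, and Cd22 a sialic acid binding receptor that dampens its signal. Blk measured 45.4, 20.1 and 31.7 CPM in sEVCTRL, 32.2, 55.1 and 23.5 CPM in sEVNORM, and 32.7 and 14.1 CPM in sEVHYP. Cd22 stood at 238, 93.5 and 155 CPM in sEVCTRL, 188, 265 and 111 CPM in sEVNORM, and 161 and 72.2 CPM in sEVHYP. Both had their highest value in sEVNORM 2 and their lowest in sEVHYP 2, with overlapping groups.

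Ms4a1 encodes CD20, the membrane protein that therapeutic B cell antibodies target, and had the highest CPM of the 9 genes. Its values were 739, 383 and 306 CPM in sEVCTRL, 515, 858 and 334 CPM in sEVNORM, and 533 and 262 CPM in sEVHYP. Cr2, the complement receptor CD21 that B cells share with follicular dendritic cells, measured 300, 191 and 164 CPM in sEVCTRL, 256, 432 and 176 CPM in sEVNORM, and 283 and 143 CPM in sEVHYP. Fcer2a, the low affinity IgE receptor CD23 of follicular B cells, measured 133, 60.2 and 94.2 CPM in sEVCTRL, 101, 182 and 80.3 CPM in sEVNORM, and 111 and 49.4 CPM in sEVHYP. Again sEVNORM 2 was highest and sEVHYP 2 lowest for each gene. In Ms4a1 and Cr2, unlike Fcer2a, sEVCTRL 3 stood below sEVCTRL 2.

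Pax5, the factor that commits cells to the B lineage and holds them there, measured 206, 102 and 125 CPM in sEVCTRL, 162, 272 and 110 CPM in sEVNORM, and 174 and 77.9 CPM in sEVHYP. Cxcr5, the receptor for CXCL13, measured 77.9, 41.2 and 55.8 CPM in sEVCTRL, 60.1, 90.01 and 41.5 CPM in sEVNORM, and 60.9 and 30.3 CPM in sEVHYP. Both kept sEVNORM 2 at the top and sEVHYP 2 at the bottom, and their groups overlapped.

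**Figure D1:**
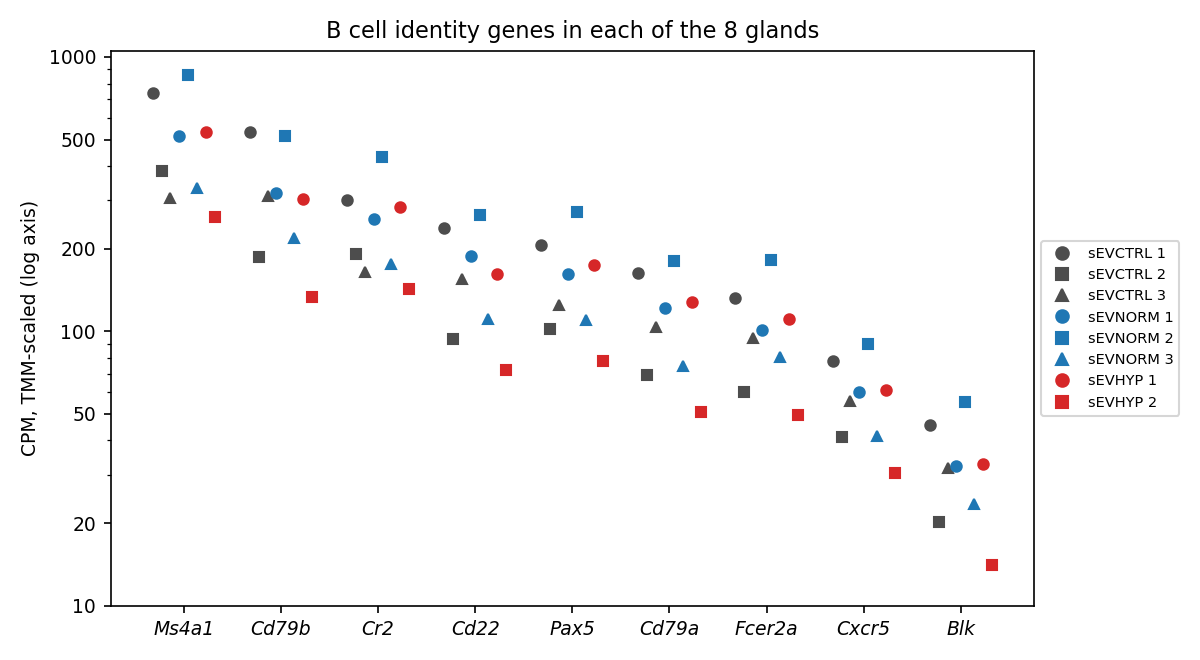
CPM (log axis) of the 9 B cell identity genes, ordered by mean CPM, with a point for each of the 8 glands, colored by group and shaped by replicate number. In each gene sEVHYP 2 is the lowest point, and sEVCTRL 1 and sEVNORM 2 are the highest pair.

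Across the 8 glands the order was nearly the same for every gene. The sEVHYP 2 gland was lowest in 9 of 9 genes, and sEVNORM 2 was highest in 8 of 9, with sEVCTRL 1 highest for Cd79b. The sEVNORM 3 gland held the 6th rank in each gene. The other sEVHYP gland, sEVHYP 1, ranked from 3rd to 5th, above 2 of the 3 sEVCTRL glands for Ms4a1, Cr2, Pax5, Fcer2a, Cd79a, Cd22, Cxcr5 and Blk. Between the highest and the lowest gland the level differed by 2.97-fold (Cxcr5) to 3.99-fold (Cd79b). Summed over the 9 genes, the level was 2434, 1147 and 1348 CPM in sEVCTRL, 1755, 2850 and 1170 CPM in sEVNORM, and 1788 and 833 CPM in sEVHYP. The highest and the lowest sEVCTRL gland thus differed by more than the means of any pair of groups did.

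Compared per kilobase of exon, which allows levels to be set against each other, Cd79b was the most abundant at 220 ± 101 CPM per kb (SD over 8 glands). Ms4a1 at 79.4 ± 34.6 and Cd79a at 76.6 ± 31.4 CPM per kb came next, and Ms4a1 was above Cd79a in 5 of 8 glands. Fcer2a (32.8 ± 13.7), Cd22 (31.8 ± 13.5) and Cr2 (30.0 ± 11.8 CPM per kb) formed the next step, with Fcer2a above Cd22 in 5 and Cd22 above Cr2 in 4 of 8 glands. Pax5 (17.4 ± 7.18) and Cxcr5 (17.2 ± 5.95 CPM per kb), with Pax5 the higher in 3 of 8 glands, were followed by Blk (11.8 ± 4.95 CPM per kb). Within these steps the neighbors did not differ beyond their spread, whereas the last gene of each step lay above the first gene of the next in 8 of 8 glands. The length is that of all annotated exons of a gene, which can exceed the transcript that was made.

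The 9 genes varied between glands of a group more than most genes did. Their SD within groups, on the log2 CPM scale, was 0.56 (Cxcr5) to 0.72 (Cd79b), with a median of 0.66, against a median of 0.32 over all 17858 genes tested. Each of the 9 stood between percentiles 77.8 and 87.2 of that spread.

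Nearly all of the variation was held in common. When each gene's own mean was taken off, a single level per gland, the mean of the 9 genes, accounted for 94.7% of the variance of their log2 CPM. The 36 pairs of genes had a Pearson r of 0.844 to 0.995 over the 8 glands, with a median of 0.972, given as a description because all 9 values of a gland come from the same library. What remained after the shared level had an SD of 0.06 (Pax5) to 0.21 (Cr2 and Ms4a1) on the log2 scale. The largest remainder was that of Ms4a1 in sEVCTRL 3, at -0.47, and Cr2 in the same gland was at -0.38. Relative to Cd79a, Ms4a1 stood at 2.94 in sEVCTRL 3 and at 4.18 to 5.50 in the other 7 glands. Cr2 relative to Cd79a was 1.58 in sEVCTRL 3 and 1.84 to 2.80 in the others. For Cd22, Blk, Cxcr5, Pax5, Fcer2a and Cd79b the highest ratio to Cd79a over the 8 glands was 1.22-fold (Blk) to 1.38-fold (Cd79b) the lowest.

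**Figure D2:**
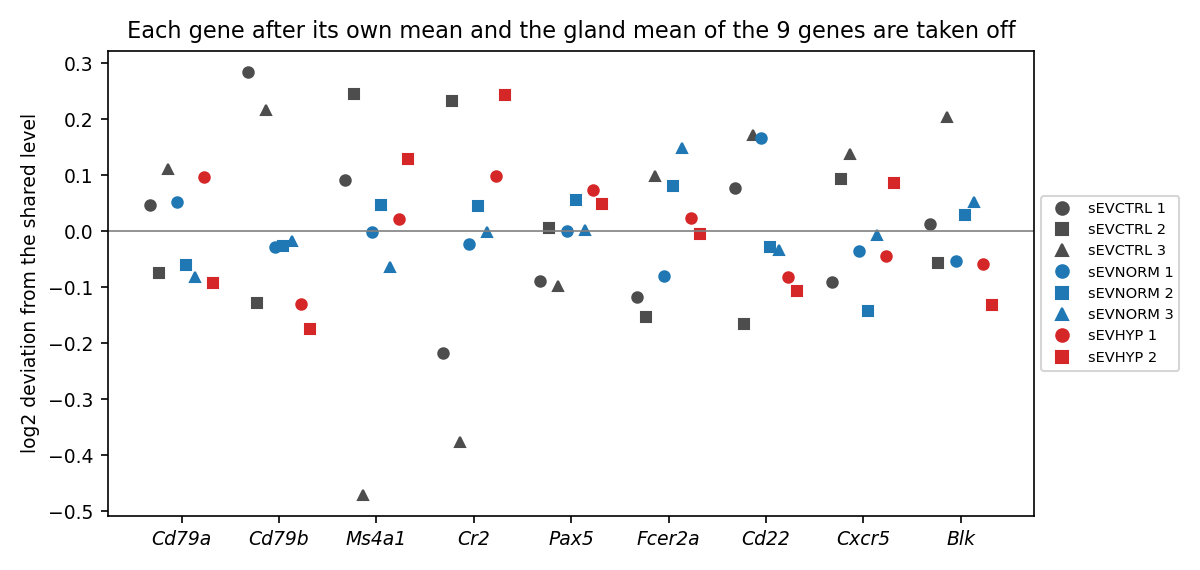
Log2 deviation of each gene in each gland after the mean of the gene and the gland level shared by the 9 genes were taken off, with points colored by group and shaped by replicate number. Points lie within 0.29 of 0 except for Ms4a1 (-0.47) and Cr2 (-0.38) in sEVCTRL 3.

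The comparison of sEVHYP with sEVCTRL asks whether vesicles from hypoxic tumor cells changed the B cell content of the gland against the control preparation. Cd79a averaged 89.3 ± 54.2 CPM (SD, n = 2) in sEVHYP and 112 ± 47.2 CPM (SD, n = 3) in sEVCTRL. Ms4a1 averaged 397 ± 192 against 476 ± 231 CPM, and Cd79b 219 ± 120 against 344 ± 176 CPM. None of the 9 genes passed the test: 0 of 9 had an unadjusted P under 0.05, the threshold of the study, against 2.45% of all genes tested, and 0 of 9 had an adjusted P under 0.05, as did 0% of all genes (edgeR quasi-likelihood F-test, two-sided, Benjamini-Hochberg over 17858 genes). DESeq2 on all 8 libraries called 0 of the 9 at an unadjusted P of 0.05 and 2 genes at an adjusted P of 0.05. The groups overlapped in all 9 genes, while 12.8% of all genes tested had groups that did not overlap. The fitted log2 fold changes were all below 0, from -0.65 for Cd79b (SE 0.52, edgeR adjusted P = 0.9999) to -0.04 for Cr2 (SE 0.43), with a median of -0.33, and the median over all genes tested was -0.02. The 95% confidence interval for Cd79a ran from -1.43 to 0.78 on the log2 scale, and holds lower as well as higher levels in sEVHYP. Without sEVHYP 2 the median turned to 0.16, without sEVCTRL 1 it was 0.030, and without sEVHYP 1 it was -0.95.

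Set against vesicles from normoxic tumor cells, the sEVHYP glands again had the lower means. Cd79a averaged 89.3 ± 54.2 CPM (SD, n = 2) against 126 ± 53.2 CPM (SD, n = 3) in sEVNORM, Cd22 117 ± 63.1 against 188 ± 76.9 CPM, and Pax5 126 ± 68.1 against 182 ± 82.6 CPM. Of the 9 genes, 0 had an unadjusted P under 0.05 in edgeR or in DESeq2, against 3.95% of all genes tested in edgeR. At an adjusted P of 0.05 edgeR called 0 of 9 and 0% of all genes, and DESeq2 called 19 genes, which do not include any of the 9. In all 9 genes the groups overlapped, because sEVHYP 1 lay above sEVNORM 3 each time, whereas 22.8% of all genes tested had groups without overlap. The log2 fold changes ran from -0.69 for Cd22 (SE 0.49, edgeR adjusted P = 0.9998) to -0.43 for Cr2 (SE 0.43), with a median of -0.53 against -0.02 over all genes tested. The interval for Cd22 was -1.79 to 0.41. Without sEVHYP 2 the median was -0.094, and without sEVNORM 2 it was -0.15. Without sEVHYP 1 it was -1.29, and Cd79a, Fcer2a, Cd22 and Blk had an unadjusted P under 0.05, as did 827 of 18725 genes tested in that fit, where the single sEVHYP library was assumed to vary like the other groups.

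Vesicles from normoxic tumor cells were also compared with the control preparation. Cr2 averaged 288 ± 131 CPM (SD, n = 3) in sEVNORM and 219 ± 71.9 CPM (SD, n = 3) in sEVCTRL, and Fcer2a 121 ± 53.9 against 95.6 ± 36.3 CPM. Here 0 of 9 genes had an unadjusted P under 0.05 in edgeR or in DESeq2, against 1.62% of all genes tested in edgeR, 0 of 9 and 0% passed an adjusted P of 0.05 in edgeR, and in no gene were the groups apart, against 4.85% of all genes. Log2 fold changes lay between 0.03 for Cd79b (SE 0.45) and 0.40 for Cr2 (SE 0.38, edgeR adjusted P = 0.9998), with a median of 0.21 against 0.00 over all genes tested. The interval for Cr2 was -0.46 to 1.26. Without sEVNORM 2 the median turned to -0.16 and without sEVCTRL 2 to -0.062, while it was 0.57 without sEVCTRL 1 and 0.48 without sEVNORM 3. The 3 comparisons share libraries, so their values are not independent of each other, and because the 9 genes share 1 level per gland, their common sign in a comparison is no more evidence than that of a single gene.

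**Figure D3:**
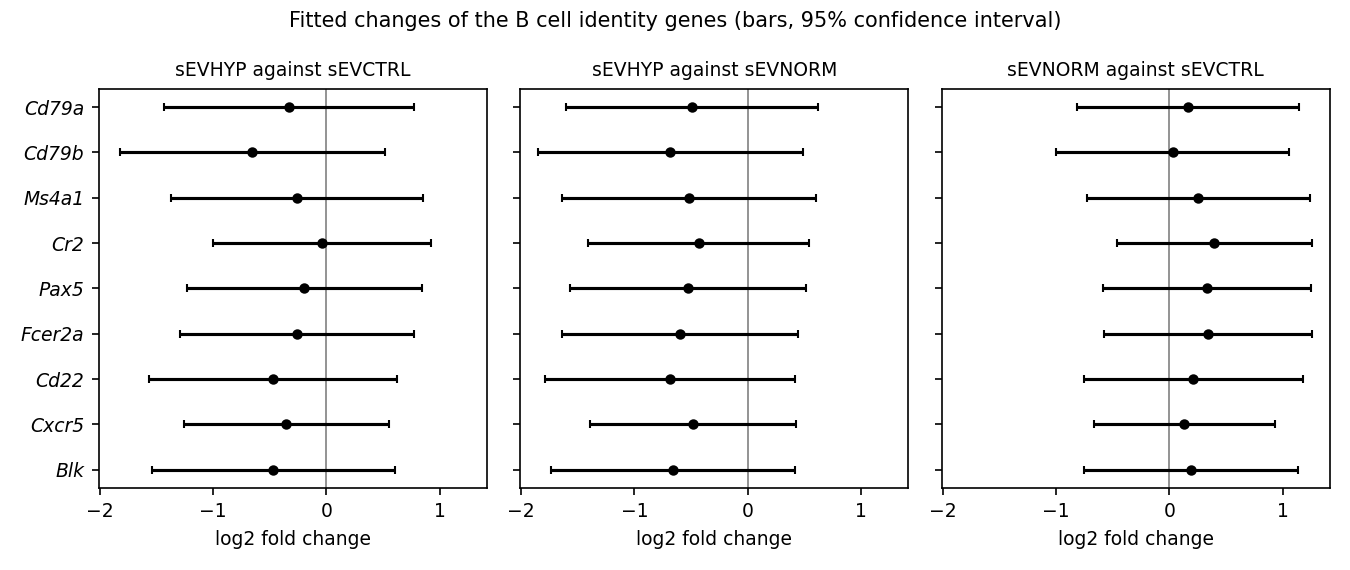
Log2 fold change of each of the 9 genes in the 3 comparisons (points, edgeR) with the 95% confidence interval (bars). Every interval spans 0, and the points lie below 0 in both sEVHYP comparisons and above 0 for sEVNORM against sEVCTRL.

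The genes of receptor signaling around the 9 followed the same glands. Of 20 genes on that list, which holds the kinase genes Syk, Lyn and Btk and the adaptor gene Blnk, 0 passed an unadjusted P of 0.05 in any comparison with edgeR. The median log2 fold change of the 20 was -0.24 for sEVHYP against sEVCTRL, -0.39 for sEVHYP against sEVNORM and 0.14 for sEVNORM against sEVCTRL. The scaffold gene Bank1, at 159 CPM in sEVCTRL 3 against 181 CPM in sEVCTRL 2 and 343 CPM in sEVCTRL 1, had the low sEVCTRL 3 value that Ms4a1 and Cr2 had. Cd81, a tetraspanin gene that most cells express, varied by 1.51-fold only and did not follow the 9 genes.

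Of 23 genes of B cell transcription and maturation, 0 passed an unadjusted P of 0.05 in any comparison, with medians of -0.34, -0.58 and 0.18 in the same order of comparisons. Ighd, the heavy chain of the IgD that naive B cells carry, measured 952, 452 and 551 CPM in sEVCTRL, 740, 1146 and 483 CPM in sEVNORM, and 660 and 312 CPM in sEVHYP. Its highest gland was sEVNORM 2, as for 8 of the 9 genes, and its lowest sEVHYP 2, as for all 9. In Ighd sEVNORM 1 stood above sEVHYP 1, as it did in Cd79b and Cd22. Ighm, the heavy chain of IgM, measured 3379, 1032 and 1453 CPM in sEVCTRL, 1679, 2787 and 1742 CPM in sEVNORM, and 1152 and 859 CPM in sEVHYP. Both sEVHYP values of Ighm lay below the sEVNORM values (log2 fold change -1.04, SE 0.48, edgeR adjusted P = 0.9998), and overlapped those of sEVCTRL. Ebf1, a B lineage factor that adipocytes also express, held 309 to 428 CPM with no such order.

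The likeness of every tested gene to the 9 was described by Pearson's r between its log2 CPM and the mean log2 CPM of the 9 genes over the 8 glands. The 10 genes most alike outside the 9 were Fcrla, Xkrx, Ighd, Pou2f2, Tlr1, Lbh, Tmem131l, Ablim1, Grb2 and Ly9, with r of 0.990 to 0.995. Fcrla, a gene of an Fc receptor-like protein of B cells, measured 79.4, 31.3 and 46.6 CPM in sEVCTRL, 52.9, 88.9 and 35.9 CPM in sEVNORM, and 51.8 and 22.9 CPM in sEVHYP. The range between glands differed among these 10: Xkrx ran from 7.33 to 24.4 CPM, and Ablim1 only from 246 to 372 CPM. An r above 0.9 was found for 3.24% of all genes tested, for 16 of 20 receptor signaling genes and for 18 of 23 genes of transcription and maturation. The 9 genes themselves, each of which is part of the mean, had r of 0.934 (Cr2) to 0.994 (Pax5).

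The 4 precursor genes of the B lineage that were tested had a median r of -0.209 with the 9 genes. Erg had an r of -0.602, Rag1 of 0.183 and Dntt of 0.535. Because Cd93 and Erg are also endothelial genes and the others were near the floor, this median does not describe B cell precursors. Cd93, the highest of the precursor list and also a gene of endothelial cells, measured 85.3 to 139.5 CPM and ran against the 9 genes, with r of -0.932. The precursor genes Rag1 and Dntt were near the floor of detection, at 0 to 0.620 CPM and 0.547 to 1.62 CPM, and Vpreb2 had a count of 0 in all 8 libraries, which allows up to 3 counts in each. Of 4 precursor genes tested, 1 rose and 1 fell at an unadjusted P of 0.05 for sEVNORM against sEVCTRL, where 1.62% of all genes tested passed. The gene that rose was Rag1 (edgeR adjusted P = 0.9998), with 0 counts in 2 of the sEVCTRL libraries. Its counts were 5, 14 and 11 in sEVNORM 1 to 3 and at most 2 in any sEVCTRL or sEVHYP library. Rag1 thus passed the filter on low counts only through sEVNORM 2 and sEVNORM 3, in the group called higher. Because the filter depended on that group, the rise of Rag1 cannot be weighed against the 1.62% of all genes. The gene that fell was Erg (log2 fold change -0.49, SE 0.21, edgeR adjusted P = 0.9998), which endothelial cells also express.

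Among 10 germinal centre genes the median r with the 9 genes was 0.0885. For sEVHYP against sEVCTRL, where 2.45% of all genes tested passed an unadjusted P of 0.05, Basp1 rose (log2 fold change 0.44, SE 0.19, edgeR adjusted P = 0.9999) and Fas fell (-0.38, SE 0.15, edgeR adjusted P = 0.9999), both expressed by many cell types. The other 8 of the 10 did not pass.

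The plasma cell genes, as a list, followed the 9 genes less closely than the receptor signaling genes did. Jchain, the joining chain of secreted IgM and IgA, measured 1223, 254 and 198 CPM in sEVCTRL, 182, 607 and 602 CPM in sEVNORM, and 247 and 176 CPM in sEVHYP. It was highest in sEVCTRL 1 and nearly equal in sEVNORM 2 and sEVNORM 3, glands in which the 9 genes differed by 2850 against 1170 CPM. Of 10 plasma cell genes, 1 passed an unadjusted P of 0.05 (2.45% of all genes tested), Sdc1 for sEVHYP against sEVCTRL (log2 fold change 0.64, SE 0.23, edgeR adjusted P = 0.9999), which epithelial cells also express, and the median r of the list with the 9 genes was 0.551. Pou2f2, which encodes the factor OCT2 of B cells at large, had the highest r of that list, 0.994. Mzb1 had an r of 0.780, and Irf4 had the lowest, -0.272.

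T cell genes moved with the 9 genes, and lymph node genes did so in part. The summed level of 24 T cell genes was 2161, 1137 and 1744 CPM in sEVCTRL, 1765, 2216 and 1418 CPM in sEVNORM, and 1847 and 983 CPM in sEVHYP. It was highest and lowest in the same glands as the 9 genes, over a 2.26-fold range against 3.42-fold for the 9. The B cell sum divided by the T cell sum was 1.13, 1.01 and 0.773 in sEVCTRL, 0.995, 1.29 and 0.825 in sEVNORM, and 0.968 and 0.848 in sEVHYP. Of the 24 T cell genes 0 passed an unadjusted P of 0.05 in any comparison with edgeR, and their median r with the 9 genes was 0.830.

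Of 19 genes of lymph node stroma and follicle, 2 fell for sEVHYP against sEVNORM and 1 rose for sEVNORM against sEVCTRL at an unadjusted P of 0.05, which 3.95% and 1.62% of all genes tested passed. Those that fell were Tnfsf11, the RANKL gene (log2 fold change -0.94, SE 0.27, edgeR adjusted P = 0.9998), and Glycam1, a mucin of lymph node venules that the mammary epithelium also makes (-0.65, SE 0.28, edgeR adjusted P = 0.9998). The gene that rose was Lyve1, of lymphatic endothelium and some macrophages (0.49, SE 0.20, edgeR adjusted P = 0.9998). Cxcl13, the follicular chemokine that CXCR5 binds, measured 535, 307 and 335 CPM in sEVCTRL, 792, 931 and 329 CPM in sEVNORM, and 610 and 298 CPM in sEVHYP. Its 4 lowest glands, at 298 to 335 CPM, were also the 4 lowest for the summed level of the 9 genes. Ccl21a, a chemokine of the T cell zone, ran from 109 CPM in sEVCTRL 2 to 240 CPM in sEVCTRL 3 and was not highest in sEVNORM 2.

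**Figure D4:**
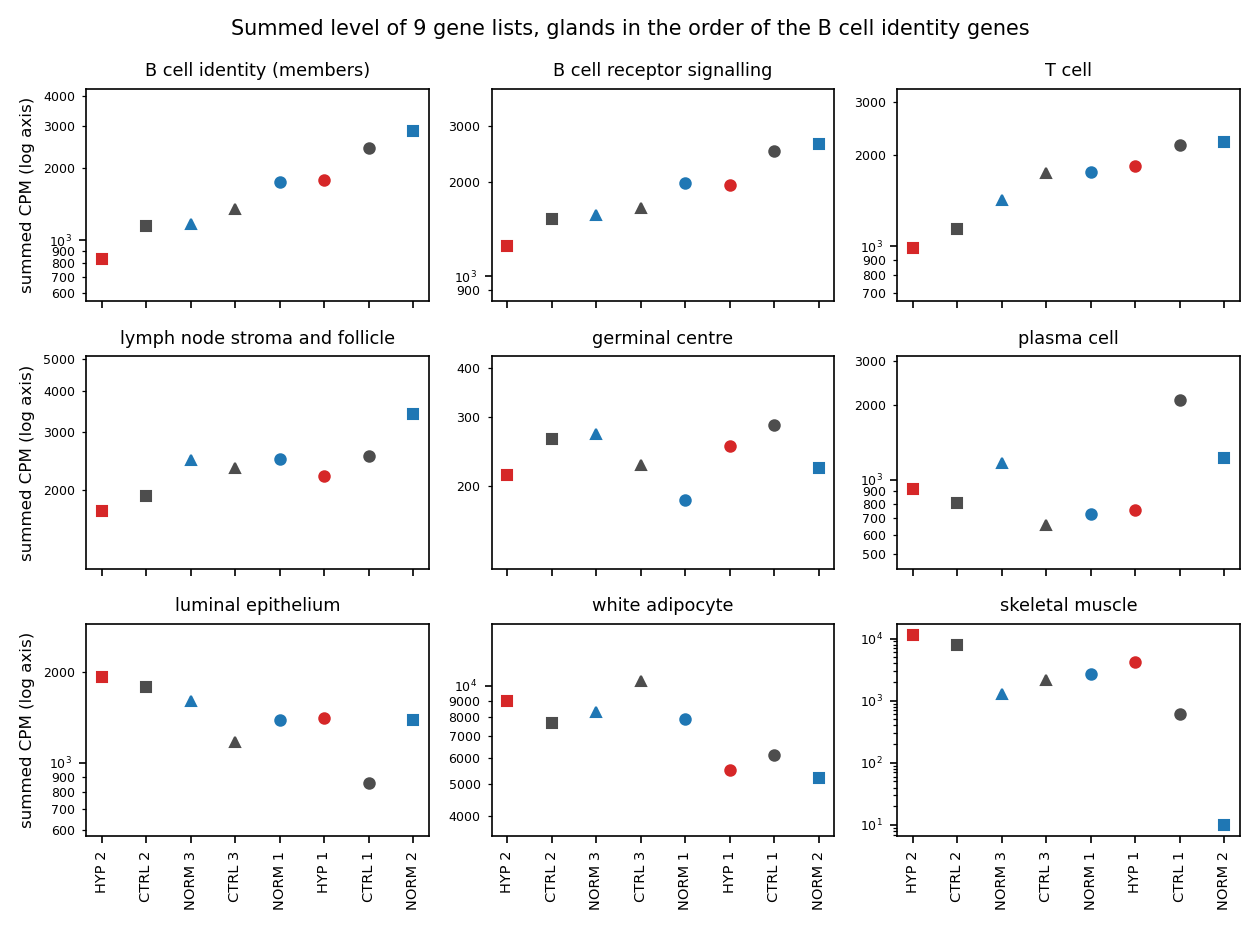
Summed CPM (log axes, scaled to each panel) of 9 gene lists in the 8 glands, which are ordered from left to right by the sum of the 9 B cell identity genes and colored by group. Receptor signaling and T cell genes climb from sEVHYP 2 to sEVNORM 2, germinal centre and plasma cell genes do not, and skeletal muscle is lowest in sEVNORM 2.

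The other cell type lists had a median r below the 0.574 of the node list, and endothelial and myeloid cells are part of lymph nodes too. The median r with the 9 genes was -0.425 for 10 luminal genes, -0.734 for 6 basal genes, -0.599 for 8 white adipocyte genes, -0.749 for 7 endothelial genes and -0.782 for 8 skeletal muscle genes, against 0.0178 over all genes tested. For 12 myeloid genes it was 0.333, and single genes of these lists went with the 9 genes, with r of 0.888 for the neutrophil genes S100a8 and S100a9, 0.853 for Lyz2 and 0.409 for endothelial Pecam1. At an unadjusted P of 0.05 in edgeR, 3 of the 12 myeloid genes fell for sEVHYP against sEVNORM (3.95% of all genes tested passed) and 1 rose for sEVNORM against sEVCTRL (1.62% of all), 1 of 6 basal genes rose for sEVHYP against sEVCTRL (2.45% of all), 1 of 10 luminal genes rose for sEVNORM against sEVCTRL (1.62% of all), and 0 adipocyte, endothelial and muscle genes passed. The muscle sum was 610, 7782 and 2181 CPM in sEVCTRL, 2669, 9.97 and 1278 CPM in sEVNORM, and 4170 and 11602 CPM in sEVHYP. The gland with the least muscle RNA, sEVNORM 2, was the gland with the most B cell RNA, and the gland with the most muscle RNA, sEVHYP 2, had the least. Their part in the level of the 9 genes was not tested. 

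To relate Cd79a to a gene of each compartment over the 8 glands, 7 correlations of log2 CPM were computed. These tests were chosen with earlier results of these data known. They were exact two-sided permutation tests over all 40320 orders, with Benjamini-Hochberg adjustment over the 7. With Ms4a1 Pearson's r was 0.906 (exact permutation P = 0.00278, adjusted P = 0.0161) and Spearman's rho 0.905 (P = 0.00456, adjusted P = 0.0160). With the T cell gene Cd3e r was 0.860 (exact permutation P = 0.00461, adjusted P = 0.0161) and rho 0.810 (P = 0.0218, adjusted P = 0.0429). Both partners thus tracked Cd79a over all 8 glands. With Cxcl13 r was 0.844 (exact permutation P = 0.0115, adjusted P = 0.0268) and rho 0.905 (P = 0.00456, adjusted P = 0.0160). With Ighm r was 0.806 (exact permutation P = 0.0171, adjusted P = 0.0299) and rho 0.762 (P = 0.0368, adjusted P = 0.0429).

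Muscle Acta1 ran against Cd79a, with r of -0.715 (exact permutation P = 0.0290, adjusted P = 0.0406) and rho of -0.762 (P = 0.0368, adjusted P = 0.0429). For adipocyte Adipoq r was -0.628 (exact permutation P = 0.0960, adjusted P = 0.112) and rho -0.762 (P = 0.0368, adjusted P = 0.0429), so the call differed between the measures. For luminal Epcam r was -0.463 (exact permutation P = 0.251, adjusted P = 0.251) and rho -0.429 (P = 0.299, adjusted P = 0.299), which did not pass. Without sEVHYP 2 and sEVCTRL 2, the glands farthest from the median of Cd79a, r was 0.920 for Ms4a1, 0.778 for Cxcl13, 0.655 for Cd3e, 0.592 for Ighm, -0.611 for Acta1, -0.707 for Adipoq and -0.543 for Epcam. Over those 6 glands no adjusted P was below 0.0875 (exact permutation test, 720 orders), so that the 5 calls by r did not hold without these 2 glands, although the r of Ms4a1 was no lower, and fewer glands also raise the P that can be reached. Within groups, with each group mean taken off, r was 0.898 for Ms4a1, 0.929 for Cxcl13, 0.844 for Cd3e, 0.799 for Ighm, -0.686 for Acta1, -0.823 for Adipoq and -0.522 for Epcam. The 72 orders within groups allow no P below 0.0139, which Cxcl13 reached, and gave no adjusted P below 0.0972 (exact permutation test).

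**Figure D5:**
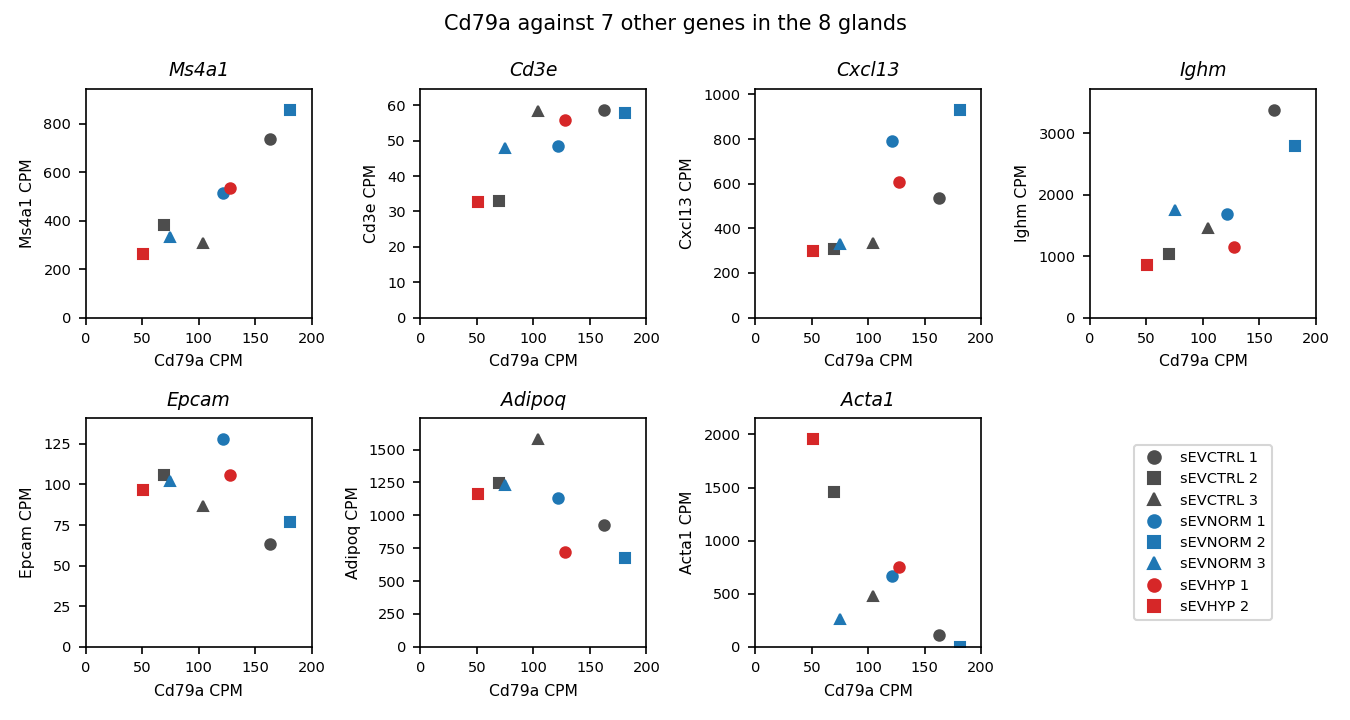
CPM of 7 genes against CPM of Cd79a (linear axes from 0), with a point for each gland, colored by group and shaped by replicate number. Ms4a1, Cd3e, Cxcl13 and Ighm are higher in glands with more Cd79a, and Acta1 is highest in sEVHYP 2 and lowest in sEVNORM 2.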

How the data were processed

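PolyA RNA of 8 whole glands was sequenced. Per the study's methods, the authors used STAR (mm10) for alignment and RSEM 1.2.12 with Ensembl release 89 for gene counts. The deposited file holds counts as whole numbers, not normalized, and how the RSEM estimates became whole numbers is not given in the sources used here. Groups came from the labels. Of 51789 genes, 51596 received a symbol and a position from GENCODE M21, and genes lacking a symbol took 0.0389% of the counts.

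The tests used edgeR 4.0.16 under R 4.3.3, with TMM scaling, the filterByExpr filter at a count of 10 and the two-sided quasi-likelihood F-test, in a single model of the 3 groups, with 17858 genes tested, 5 residual degrees of freedom and Benjamini-Hochberg adjustment over all genes. The SE of a log2 fold change was derived from the F statistic. Log2 CPM used a prior count of 2. The procedure was tested on simulated data. The 9 genes, the 13 other lists (written by hand) and the tests were chosen with earlier results of these data known. Named from each list were the 4 genes of highest mean CPM and up to 3 of lowest unadjusted P under 0.05, of which those that a result turns on are given. Vpreb2, Syk, Btk and Blnk were named after their values were seen. Some listed genes are not reported here. Alternatives were DESeq2 1.42.0 (with all 8 libraries, or those of the groups compared), its size factors, edgeR on only the groups compared, other filters, a replicate block and each library left out.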

Additional observations from a re-analysis of the deposited data

How the results depend on the processing

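In edgeR with DESeq2 size factors, with no filter or at least 10 counts in every library, on only the groups compared, or with a replicate block, and in DESeq2 with either choice of libraries, 0 of the 9 genes had an unadjusted P under 0.05, and every median kept its sign. The replicate numbers did not pair the glands (correlations of deviations of same-numbered libraries ran from -0.416 to 0.369), and with the block the medians were -0.55 for sEVHYP against sEVCTRL, -0.82 for sEVHYP against sEVNORM and 0.27 for sEVNORM against sEVCTRL. Leaving out each library in turn gave 0 to 4 genes with an unadjusted P under 0.05 for sEVHYP against sEVNORM and 0 in the other comparisons. The median then ran from -0.95 to 0.16 for sEVHYP against sEVCTRL, from -1.29 to -0.094 for sEVHYP against sEVNORM and from -0.16 to 0.57 for sEVNORM against sEVCTRL. Single genes turned sign, with log2 fold changes for sEVHYP against sEVCTRL of Cd79a -1.14 to 0.18, Ms4a1 -0.86 to 0.20, Cr2 -0.61 to 0.36, Pax5 -0.88 to 0.26, Fcer2a -0.95 to 0.20, Cxcr5 -0.94 to 0.053, Blk -1.20 to 0.0029, for sEVNORM against sEVCTRL of Cd79a -0.19 to 0.51, Cd79b -0.35 to 0.47, Cd22 -0.12 to 0.57, Cxcr5 -0.20 to 0.37, Blk -0.22 to 0.48, Ms4a1 -0.16 to 0.70, Cr2 -0.019 to 0.67, Pax5 -0.080 to 0.65, Fcer2a -0.075 to 0.62, and for sEVHYP against sEVNORM of Cd79a -1.30 to 0.020. Over all genes, those with an unadjusted P under 0.05 numbered 438 for sEVHYP against sEVCTRL, 706 for sEVHYP against sEVNORM and 290 for sEVNORM against sEVCTRL, and 672, 1102 and 533 with no filter. They numbered 1168 for sEVHYP against sEVNORM in DESeq2 on these groups alone, and with a library left out 341 to 1472, 415 to 986 and 222 to 1018 in the same order. At an adjusted P under 0.05, where edgeR called 0 in each, DESeq2 called 2, 19 and 2 on all libraries and 11, 81 and 3 on those compared, and edgeR with no filter called 1 for sEVHYP against sEVNORM. A fit without a library has fewer samples in its group, a fit with no filter tests more genes, and the cause of the other differences was not tested. Counts of 264 or more leave counting error small, so that the number of glands, 2 or 3 per group, limits the precision.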
